A study of Bos taurus with 29 samples.

Results

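Single bovine oocytes that had spent 6 h in pre-maturation culture with C-type natriuretic peptide (CNP) before in vitro maturation (CNP_IVM) were compared with oocytes matured conventionally (IVM). The comparison used 15 of the 22 libraries with values, 7 CNP_IVM and 8 IVM oocytes, taken by their titles, and the 11852 of 13502 listed genes that reached 1 CPM (counts per 1e+06 library reads) in at least 6 of all 22 libraries. The other 7 libraries are germinal vesicle (GV) oocytes, which are given only as a starting level. All animals are labelled wild type, and all complexes of oocyte and cumulus cells came from follicles of donors given FSH. CNP_IVM complexes were held for 6 h in 200 nM CNP without EGF and then for 22 h in maturation medium with EGF and FSH, 28 h in all. IVM complexes had the 22 h of maturation alone, and GV oocytes were stripped of cumulus cells on the day of collection. CNP and the 6 h of extra culture therefore cannot be told apart, since no group had the extra hours without CNP. The labels name neither the animal nor the culture behind an oocyte, so each group counts as 1 sample: no test was made, and SDs and ranges show the spread between single oocytes, not between animals.

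CNP is a peptide of the granulosa cells that line the follicle. It binds the receptor NPR2 on cumulus cells, which then make cyclic GMP. This passes through gap junctions into the oocyte and inhibits the phosphodiesterase PDE3A, so that cyclic AMP stays high and meiosis stays arrested. A fully grown oocyte makes almost no new nuclear transcripts. During maturation it adenylates some of its stored messenger RNAs and removes the poly(A) tails of others, while mitochondria transcribe their own genome separately. Because the libraries were primed on poly(A), a level here is the share of a gene in the primed library, and the amount of a transcript, the length of its tail and the size of the rest of the library cannot be told apart.

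Library totals were 34835906 to 39089848 reads in CNP_IVM, 20159662 to 39340040 in IVM and 27610555 to 36698324 in GV oocytes. The CNP_IVM oocytes each had 9429 to 9834 genes at 1 CPM or more. Among the IVM oocytes, replicates 5, 6 and 7 had 9460, 9817 and 9431, while the other 5 had 10400.0 to 10783. The oocyte markers were high in every library, with a sum over 12 genes of 40183 to 58346 CPM in CNP_IVM and 26844 to 47195 CPM in IVM oocytes. Most of this sum was BTG4, with means of 32075 CPM in CNP_IVM and 19952 CPM in IVM oocytes. By group means, 3 of the 12 markers were higher in CNP_IVM oocytes. Markers of cumulus and granulosa cells summed to 290 to 374 CPM in CNP_IVM and 429 to 734 CPM in IVM oocytes, over 24 of 30 listed genes. STAR was also held by oocytes of the GV group, at a mean of 657 CPM (643 CPM without replicate 9). Without STAR the sums were 189.8 to 269 CPM in CNP_IVM and 223 to 325 CPM in IVM oocytes and overlapped. These sums still hold HAS2, which was higher in CNP_IVM oocytes, with means of 118 CPM in CNP_IVM and 77.1 CPM in IVM oocytes. Blood and immune markers summed to 4.11 to 25.7 CPM in CNP_IVM and 8.56 to 47.6 CPM in IVM oocytes, with CD68 at 0 in every CNP_IVM oocyte. Theca and stroma markers summed to 5.34 to 14.5 CPM in CNP_IVM and 7.43 to 24.9 CPM in IVM oocytes. The part of such RNA in the results was not tested. GV replicate 9 stood apart from its group: it had 9381 genes at 1 CPM or more against 11311 to 11798 in the other 6 GV oocytes, and its treatment label is at odds with its title. It enters no group mean compared below, but the level filter and the TMM factors used further on were computed with it included. Each GV level is given with and without it.

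Most genes lay within 2-fold of each other in the 2 groups, and those that did not were mostly lower after CNP. On the scale used throughout, the log2 ratio of group means each raised by 1 CPM, 220 of the 11852 genes (1.86%) were at least 2-fold higher in CNP_IVM than in IVM oocytes and 1754 (14.8%) at least 2-fold lower. The 7 CNP_IVM oocytes all lay above all 8 IVM oocytes in 74 of the higher genes (0.624% of genes) and all below them in 213 of the lower genes (1.8% of genes). That is 33.6% of the higher and 12.1% of the lower genes. The median log2 difference over all genes was -0.28, so the scale itself leans to lower values. With trimmed-mean (TMM) factors that median was -0.056 and with quantile normalization 0.0058. The share of higher genes among those 2-fold apart was 11.1% as deposited, 31.5% with TMM factors and 40.2% with quantile normalization. Differences below are as deposited, so a list's median is to be read against the -0.28 of all genes. Its counts are to be read against the 1.86% higher and 14.8% lower of all genes. Genes named from a list are mostly those with its largest differences and do not stand for it.

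**Figure D1:**
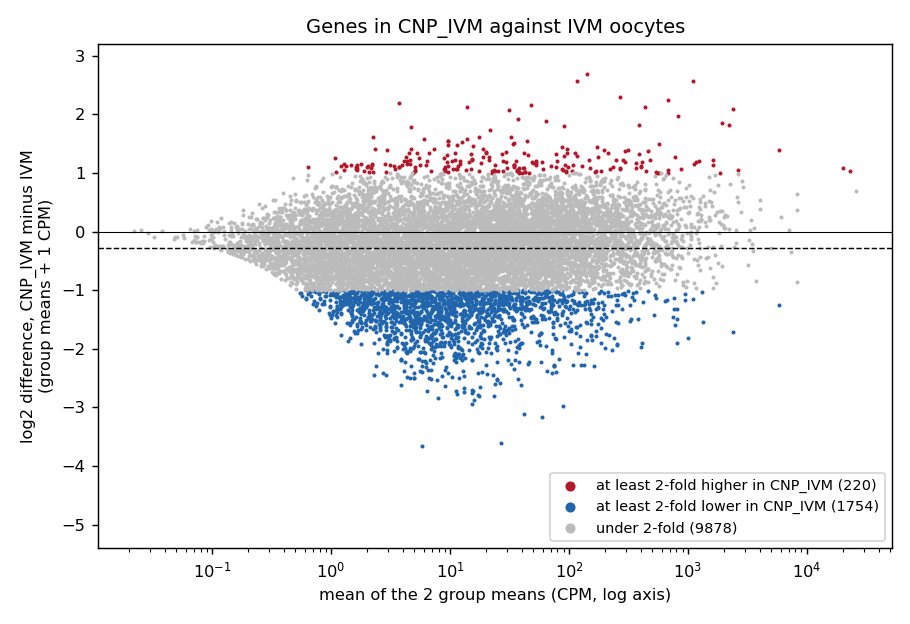
Log2 difference between CNP_IVM and IVM oocytes for 11852 genes (vertical axis, group means plus 1 CPM) against the mean of both group means (horizontal axis, CPM, log scale); the dashed line is the median of all genes, -0.28. The 220 genes at least 2-fold higher (red) include the 13 mitochondrial-genome transcripts, and the 1754 lower genes (blue) spread over most of the range of levels.

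The genes with the most reads took a larger share of the reads in CNP_IVM oocytes. The 100 genes with the most reads in each library took 32.7 to 35.6% of its reads (mean 34.2%) in CNP_IVM and 23.8 to 31.6% (mean 28.4%) in IVM oocytes, without overlap. The 20 genes with the most reads in each library summed to 187422 ± 8012 CPM in CNP_IVM and 143535 ± 21437 CPM in IVM oocytes (SD, n = 7 and 8). Most reads of all went to BTG4, which recruits the deadenylase that shortens maternal transcripts, with 25421, 31399 and 40963 CPM as the lowest, median and highest CNP_IVM oocyte and 11543, 20137 and 28829 CPM in IVM oocytes (log2 difference 0.68, and -0.072 with quantile normalization). IVM replicates 5 and 7 lay inside the CNP_IVM range of BTG4, and with TMM factors its log2 difference was 0.89. Quantile normalization gives genes of equal rank the same value in every library, so it shrinks differences in the genes with the most reads. PTTG1 and TMSB4X came next, with means of 31069 and 27440 CPM in CNP_IVM and 15222 and 12987 CPM in IVM oocytes. Together with BTG4 they hold most of the gap between the groups in the sums above. Of the 20 genes with the highest mean over both groups, 13 were higher in CNP_IVM oocytes. The spread between oocytes was also smaller after CNP: among the 6576 genes whose mean reached 10 CPM in the CNP_IVM or the IVM group, the median SD of log2 values was 0.389 in CNP_IVM and 0.458 in IVM oocytes, and 65.0% of genes varied more among IVM oocytes.

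Among the genes 2-fold apart, the IVM oocytes did not lie equally often within reach of CNP_IVM values. These genes were called on means that include the same IVM oocytes. The counts therefore describe single oocytes and are no support for the differences. Of the 1754 lower genes, IVM replicate 7 lay at or below the highest CNP_IVM oocyte in 1165 (66.4%), replicate 5 in 1130 (64.4%) and replicate 6 in 902 (51.4%). For replicates 3 and 10 the counts were 337 and 275, and for replicates 8, 9 and 1 they were 150, 108 and 93. Replicate 8 was the highest IVM oocyte in 835 of these genes and replicate 9 in 539. Replicates 5, 6 and 7 are also the 3 IVM oocytes whose numbers of genes at 1 CPM were at the level of CNP_IVM oocytes, and replicate 7 had the smallest library; the part of either in the result was not tested. Inside the CNP_IVM range, replicates 7, 5 and 6 lay in 1047, 1057 and 852 of the lower genes. By this same measure the higher genes were spread differently. Each IVM oocyte lay inside the CNP_IVM range in 52 to 87 of the 220, with 58 to 87 for replicates 5, 6 and 7. Without IVM replicate 8 the number of lower genes was 1389, and without IVM replicate 5 it was 2060.

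**Figure D2:**
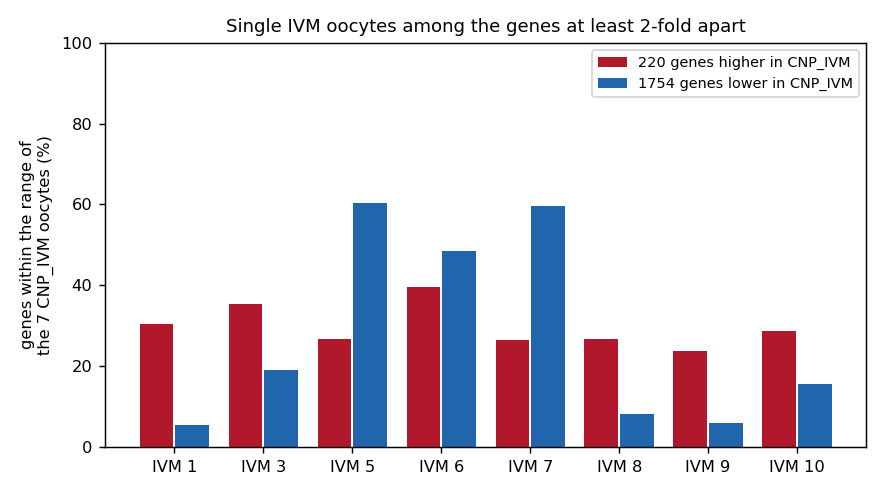
Share of the 220 higher (red) and 1754 lower (blue) genes in which each IVM oocyte lay within the range of the 7 CNP_IVM oocytes (vertical axis, %). These genes were called on means that include the same IVM oocytes. Replicates 5, 6 and 7 stand at 60.3, 48.6 and 59.7% of the lower genes and the other IVM oocytes at 5.3 to 18.9%, whereas the higher genes give 23.6 to 39.5% for all 8.

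The list with the greatest differences was that of the mitochondrial genome, which encodes 13 subunits of the respiratory chain and ATP synthase. All 13 were at least 2-fold higher, with a median log2 difference of 2.08, and their sum averaged 16944 ± 7124 CPM in CNP_IVM oocytes, with a range of 7908 to 30207. It averaged 4131 ± 2275 CPM in IVM oocytes, ranging over 2205 to 9414, and 3190 ± 1067 CPM in GV oocytes, or 2916 ± 858 CPM without GV replicate 9 (SD between oocytes). The log2 difference of the sums was 2.04, between 1.83 and 2.33 when any 1 oocyte was left out. ND1, ND2, ND3, ND4, ND6 and ATP6 did not overlap between groups. In the other 7 genes IVM replicate 3, the highest IVM oocyte of the sum, lay inside the CNP_IVM range, joined by replicate 6 for COX1. CNP_IVM replicate 2 was the highest oocyte in all 13 genes.

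Complex I is the entry point of electrons from NADH. Its subunit ND1 had 872, 1208 and 2038 CPM as the lowest, median and highest CNP_IVM oocyte and 179.5, 310.3 and 516 CPM in IVM oocytes (log2 difference 1.97). ND4 had 576, 954 and 2105 CPM in CNP_IVM and 127, 211 and 562 CPM in IVM oocytes (2.24). Both sets were apart, the nearest pair of ND4 being 575.9 CPM in a CNP_IVM and 561.9 CPM in an IVM oocyte. ND6 is the only one of the 13 encoded on the light strand, so its transcript comes from a different primary RNA. It had 108, 171 and 449 CPM in CNP_IVM and 15.03, 26.9 and 68.8 CPM in IVM oocytes. The log2 difference of 2.56 lies among those of the heavy-strand genes. Which strand the reads assigned to ND6 came from was not tested. ND2 (2.30) and ND3 (2.68) were also apart, whereas ND4L (1.92) and ND5 (1.82) overlapped.

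CYTB, the mitochondrial subunit of complex III, had 1319, 2922 and 4434 CPM in CNP_IVM and 385, 703 and 2085 CPM in IVM oocytes (1.85), and 2 CNP_IVM oocytes lay within the IVM range. COX1, the catalytic subunit of complex IV, had 1072, 3402 and 5767 CPM in CNP_IVM and 582, 911 and 2009.6 CPM in IVM oocytes (1.82). Its lowest CNP_IVM oocyte stood among the IVM oocytes and the other 6 above them. COX2 and COX3 differed by 2.13 and 2.08. ATP6, a proton channel subunit of ATP synthase, had 982, 1609 and 3999 CPM in CNP_IVM and 147, 259 and 830.3 CPM in IVM oocytes (2.57), with no overlap. ATP8, which shares its transcript with ATP6, averaged 51.7 ± 20.4 CPM in CNP_IVM and 11.5 ± 6.67 CPM in IVM oocytes (2.08). The 13 genes thus differed by 1.82 to 2.68 on the log2 scale, from ND5 and COX1 to ND3.

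**Figure D3:**
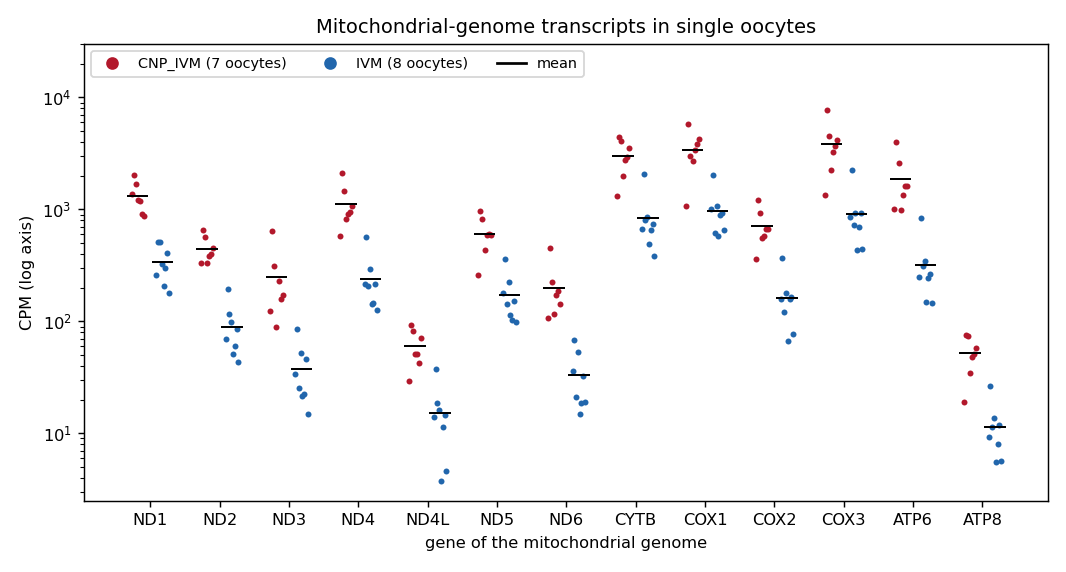
CPM (vertical axis, log scale) of the 13 protein-coding genes of the mitochondrial genome in each CNP_IVM (red) and IVM (blue) oocyte; points run left to right by replicate number and bars are means. The 7 CNP_IVM oocytes of ND1, ND2, ND3, ND4, ND6 and ATP6 all lie above the 8 IVM oocytes, and the single high IVM point of most genes is replicate 3.

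Nuclear genes for mitochondrial DNA and RNA differed about as all genes did. Of 39 factors of their synthesis, processing and stability that passed the level filter, 0 were higher by 2-fold or more and 4 lower (10.3%). Over all genes 1.86% were higher and 14.8% lower. The median log2 difference of the 39 was -0.26, or 0.020 relative to all genes. In 12 of the 39 the difference was above 0, among them TFAM, POLRMT and LRPPRC. TFAM, which packages mitochondrial DNA and starts its transcription, averaged 3.21 ± 1.32 CPM in CNP_IVM and 2.14 ± 0.870 CPM in IVM oocytes (0.42) and overlapped widely. POLRMT, the mitochondrial RNA polymerase, averaged 1.64 ± 1.21 CPM in CNP_IVM and 1.28 ± 0.683 CPM in IVM oocytes (0.21), with an oocyte at 0 in each group. LRPPRC, which stabilises mitochondrial messenger RNAs, had 28.2, 51.7 and 65.7 CPM in CNP_IVM and 23.9, 32.8 and 52.3 CPM in IVM oocytes (0.55, overlapping). MGME1, an exonuclease of mitochondrial DNA, was the member without overlap, at 10.5, 14.9 and 27.9 CPM in CNP_IVM and 29.5, 37.3 and 54.2 CPM in IVM oocytes (-1.21, under 2-fold with TMM or quantile scaling). PDE12, which removes poly(A) from mitochondrial transcripts, averaged 2.74 ± 2.54 CPM in CNP_IVM and 10.5 ± 3.64 CPM in IVM oocytes (-1.62). FASTKD3, an RNA-binding protein of mitochondria, averaged 32.6 ± 17.4 CPM in CNP_IVM and 81.1 ± 19.7 CPM in IVM oocytes (-1.29); in both genes 2 IVM oocytes lay in the CNP_IVM range.

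The nuclear subunits of the same complexes went both ways. Of 83 that passed the filter, 4 were higher by 2-fold or more (4.82%), 15 were lower (18.1%) and 64 lay under 2-fold. Over all genes 1.86% were higher and 14.8% lower, and the list's median lay 0.046 above that of all genes. Small subunits stood among the higher ones. UQCRH, the hinge protein of complex III, had 531, 618 and 941 CPM in CNP_IVM and 156, 287 and 383 CPM in IVM oocytes (1.22), without overlap. NDUFB6 of complex I had 462, 579.6 and 713 CPM in CNP_IVM and 123, 266 and 314 CPM in IVM oocytes (1.19), again apart. NDUFB1 differed by 1.22 with IVM replicate 6 inside the CNP_IVM range. Among the lower ones, UQCRC1, a core subunit of complex III, had 0.537, 8.95 and 15.2 CPM in CNP_IVM and 16.2, 31.5 and 44.4 CPM in IVM oocytes (-1.92), without overlap. NDUFA10 of complex I was also apart, at 15.2 ± 5.13 CPM in CNP_IVM and 50.9 ± 13.6 CPM in IVM oocytes (-1.68). SDHA, the flavoprotein of complex II, averaged 11.5 ± 6.91 CPM in CNP_IVM and 33.7 ± 22.1 CPM in IVM oocytes (-1.47), with IVM replicates 5, 6 and 7 inside the CNP_IVM range. Subunits of one complex, UQCRH and UQCRC1, therefore stood on opposite sides. The subunits named here were picked for large differences in each direction and do not stand for the list.

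Mitochondrial ribosomal proteins included 0 higher and 13 lower genes of 76 (17.1%), near the 14.8% of all genes. MRPL37, of the large subunit, had 23.5, 38.4 and 43.8 CPM in CNP_IVM and 67.3, 149.6 and 373 CPM in IVM oocytes (-2.28), against a mean of 1111 CPM in GV oocytes, or 1046 CPM without GV replicate 9. MRPS11, of the small subunit, had 6.07, 8.04 and 13.9 CPM in CNP_IVM, 16.04, 32.99 and 61.8 CPM in IVM and a mean of 211 CPM in GV oocytes, or 223 CPM without GV replicate 9 (-1.80). Both were apart in all 15 oocytes, and both levels decreased in the order GV, IVM, CNP_IVM. MRPS30 differed by -1.77 and overlapped at IVM replicate 5. Genes of mitochondrial fusion, fission, import and mitophagy counted 0 higher and 8 lower of 34 (23.5%), with a median of -0.51, or -0.22 relative to all genes. Of these, TOMM40, the import channel of the outer membrane, averaged 1.78 ± 1.11 CPM in CNP_IVM and 16.2 ± 13.3 CPM in IVM oocytes (-2.63), TIMM50, a receptor of the inner membrane, 3.35 ± 1.52 CPM in CNP_IVM and 14.1 ± 9.55 CPM in IVM oocytes (-1.80). BNIP3, a mitophagy receptor, averaged 40.2 ± 18.4 CPM in CNP_IVM and 143 ± 60.2 CPM in IVM oocytes (-1.81). All 3 overlapped at IVM replicate 5, and TOMM40 and TIMM50 also at replicate 7. Of 37 mitochondrial carriers, 0 were higher and 9 lower (24.3%); SLC25A11, which exchanges oxoglutarate for malate, averaged 4.24 ± 2.14 CPM in CNP_IVM and 31.8 ± 17.4 CPM in IVM oocytes (-2.64), IVM replicate 5 alone lying in the CNP_IVM range.

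Genes of the pathway that CNP acts on were 2-fold apart about as often as all genes. Of 57 genes of cyclic GMP and cyclic AMP signalling past the filter (67 listed), 1 was at least 2-fold higher and 7 lower (12.3%, against 14.8% of all genes), and the sign of their median changed with the scaling. The gene of CNP itself, NPPC, is not analysed here. NPR2, its receptor, was low in these oocytes, at 0.905 ± 0.629 CPM in CNP_IVM, 0.361 ± 0.427 CPM in IVM and 2.39 ± 2.15 CPM in GV oocytes, or 2.77 ± 2.07 CPM without GV replicate 9. GUCY1A1, of the soluble guanylyl cyclase, was likewise low, at 0.854 ± 1.27 CPM in CNP_IVM and 0.709 ± 0.824 CPM in IVM oocytes. PDE3A, the oocyte phosphodiesterase that cyclic GMP inhibits, had 14.1, 26.2 and 30.9 CPM in CNP_IVM and 20.5, 35.2 and 62.9 CPM in IVM oocytes (-0.56), and the oocytes overlapped. PDE5A, which degrades cyclic GMP, had 40.7, 58.8 and 86.5 CPM in CNP_IVM and 56.3, 83.1 and 106 CPM in IVM oocytes (-0.36). GV oocytes averaged 8.40 CPM of PDE3A and 25.2 CPM of PDE5A, below both matured groups, or 9.80 and 29.2 CPM without GV replicate 9. IMPDH2, which makes the guanine nucleotide precursor, averaged 48.9 ± 19.5 CPM in CNP_IVM and 58.2 ± 19.5 CPM in IVM oocytes, with a log2 difference of -0.25 whose sign turned under TMM scaling.

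In the cyclic nucleotide list, GPR3, GNAI2 and GJA4 had the lowest differences among members that reached a mean of 10 CPM in either group. They were named for that and do not stand for the list. GPR3, the receptor that keeps the stimulatory G protein active in arrested oocytes, had 0.0793, 2.13 and 4.82 CPM in CNP_IVM and 2.48, 10.1 and 21.6 CPM in IVM oocytes (-1.79). GNAI2, an inhibitory G protein subunit, had 1.18, 2.10 and 4.24 CPM in CNP_IVM and 0.992, 12.1 and 30.8 CPM in IVM oocytes (-1.82). IVM replicates 5 and 6 lay within the CNP_IVM range of both, and replicate 7 also in that of GPR3. Of the gap junction proteins that link oocyte and cumulus, GJA4, the oocyte's own connexin, had 4.85, 10.4 and 23.3 CPM in CNP_IVM, 6.52, 101 and 249 CPM in IVM and 31.6, 57.5 and 972 CPM in GV oocytes, or 31.6, 54.8 and 90.4 CPM without GV replicate 9 (-3.17). It had one of the 20 lowest differences, and of the 8 IVM oocytes replicate 5 alone stood inside the CNP_IVM range. GJA1, the connexin of cumulus cells, averaged 5.30 ± 2.63 CPM in CNP_IVM and 9.65 ± 4.59 CPM in IVM oocytes (-0.76) and overlapped at 6 IVM oocytes.

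Genes particular to the oocyte held the greatest share of lower genes of the lists with 20 or more genes. This list of 36 holds genes of the oocyte lineage and maternal-effect genes; 13 were lower by 2-fold or more (36.1%) and 1 higher. The list's median log2 difference was -0.84, or -0.56 relative to all genes. ZP3, a sperm-binding protein of the zona pellucida, had 130.3, 169.8 and 239 CPM in CNP_IVM, 246, 579 and 1249 CPM in IVM and 1530.3, 1593 and 8420.4 CPM in GV oocytes, or 1530.3, 1589 and 3738 CPM without GV replicate 9 (-1.90). ZP4, another zona protein, had 341, 443 and 535 CPM in CNP_IVM, 1024, 1396 and 2634 CPM in IVM and 2309.7, 3121 and 3546 CPM in GV oocytes, or 2309.7, 3168 and 3546 CPM without GV replicate 9 (-1.82). Neither overlapped between the matured groups. PADI6, a protein of the cytoplasmic lattices that store ribosomes, had 12.995, 19.5 and 31.04 CPM in CNP_IVM and 26.98, 153 and 345 CPM in IVM oocytes (-2.97), and IVM replicate 7 was the single oocyte to overlap. ASTL, the cortical granule protease that hardens the zona after fertilization, averaged 29.1 ± 7.09 CPM in CNP_IVM and 136 ± 102 CPM in IVM oocytes (-2.18), overlapping at the same oocyte.

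The growth factors by which the oocyte acts on its cumulus cells differed by less than 2-fold. GDF9 had 315, 369 and 447 CPM in CNP_IVM and 511, 669 and 937 CPM in IVM oocytes (-0.88), and the groups did not overlap. BMP15 had 907, 1176 and 1567 CPM in CNP_IVM and 1320.3, 2158 and 3360.3 CPM in IVM oocytes (-0.88), with IVM replicates 6, 7 and 10 in the CNP_IVM range. The list's higher gene was OOSP2, which encodes a secreted oocyte protein, at 6072, 8913 and 11555 CPM in CNP_IVM, 1819.9, 2791 and 4749 CPM in IVM and 387, 1773 and 1867 CPM in GV oocytes, or 1499, 1779 and 1867 CPM without GV replicate 9 (1.39). All 7 CNP_IVM oocytes stood above the IVM oocytes, so zona and OOSP2 transcripts lay on opposite sides. Genes of egg calcium signalling, cortical granule exocytosis and sperm binding counted 0 higher and 13 lower of 43 (30.2%). Their median was -0.38, or -0.099 relative to all genes. This list shares zona genes and ASTL with the oocyte list.

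**Figure D4:**
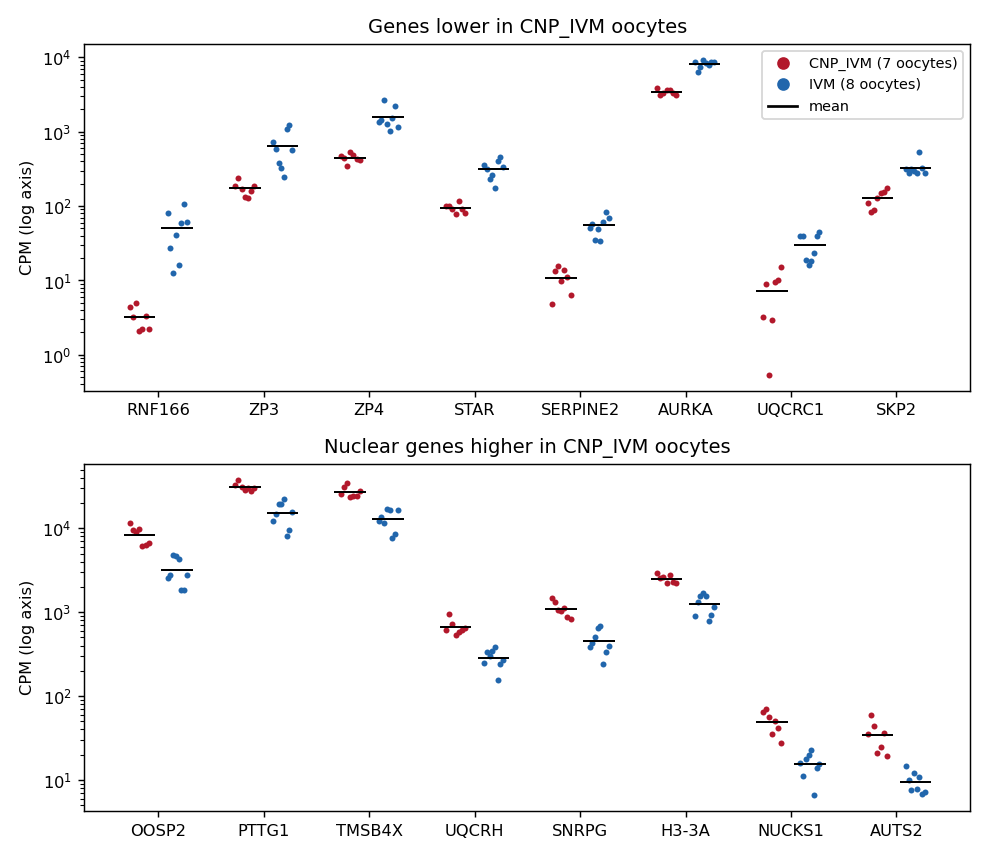
CPM (vertical axis, log scale) of 8 genes lower and 8 nuclear genes higher in CNP_IVM (red, left of each pair) than in IVM oocytes (blue), with bars for the means; points run left to right by replicate number. No gene shown overlaps between the groups, and all were chosen for that.

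Meiotic cell cycle genes were mostly within 2-fold: 1 of 68 was higher and 13 were lower (19.1%). PTTG1, securin, which holds separase inactive until anaphase, was the higher one and the second gene by reads, at 27601, 30165 and 37674 CPM in CNP_IVM and 8158, 15274 and 22332 CPM in IVM oocytes (1.03). Its oocytes did not overlap, but the log2 difference was just past 1. It was 0.98, 0.99, 0.94 and 0.96 without CNP_IVM replicate 2 or IVM replicate 1, 8 or 9, and 0.98 on medians over oocytes. With TMM factors it was 1.23. Quantile normalization gave 0.31, but it sets the top ranks of every library to the same values. CCNB1, the cyclin of maturation promoting factor, had 1959, 2224 and 2453 CPM in CNP_IVM and 2282, 2533 and 2999.6 CPM in IVM oocytes (-0.26, overlapping). Its kinase CDK1 had 26.1, 37.8 and 46.4 CPM in CNP_IVM and 49.6, 67.4 and 92.4 CPM in IVM oocytes (-0.85) without overlap. CCNB3, a cyclin of the first meiotic division, was apart by more, at 132, 190.0 and 279 CPM in CNP_IVM and 354, 532 and 872 CPM in IVM oocytes (-1.49). SKP2, of the ubiquitin ligase that degrades cell cycle inhibitors, was also apart, at 84.5, 128 and 175 CPM in CNP_IVM and 276, 307 and 529 CPM in IVM oocytes (-1.36). PLK3, a stress-responsive kinase, averaged 48.7 ± 16.4 CPM in CNP_IVM and 161 ± 137 CPM in IVM oocytes (-1.70), with IVM replicates 5, 6 and 7 inside the CNP_IVM range.

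MOS, the kinase that holds the egg at metaphase II, had 523, 831 and 1627 CPM in CNP_IVM and 631, 1762 and 2956 CPM in IVM oocytes (-1.02). It overlapped at IVM replicates 5, 6 and 7. The difference lay just past 2-fold and was -0.71 with TMM factors and -0.98 on means of log2 values. It was also -0.98 without CNP_IVM replicate 3, -0.94 without CNP_IVM replicate 5, -0.93 without CNP_IVM replicate 7, -0.88 without IVM replicate 8 and -0.93 without IVM replicate 10.

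Of 92 spindle, kinetochore, cohesin, kinesin and centrosome genes, 0 were higher and 13 lower (14.1%), close to all genes. AURKA, the kinase of spindle poles, was among the 10 genes with the most reads and was chosen after its values were seen. It had 3101, 3362 and 3839.6 CPM in CNP_IVM, 6422, 8573 and 9274 CPM in IVM and 5826, 6603 and 9106 CPM in GV oocytes, or 5826, 6516 and 6819.6 CPM without GV replicate 9 (-1.26, and -0.995 with TMM factors), without overlap between the matured groups. KIF22, a kinesin that moves chromosome arms, had 25.6, 44.1 and 60.4 CPM in CNP_IVM and 65.3, 151 and 304 CPM in IVM oocytes (-1.92) and was apart. TUBB2A and TUBB4B, beta-tubulins whose near-identical copies make single values uncertain, averaged 11.2 ± 3.32 and 4.93 ± 1.15 CPM in CNP_IVM and 40.2 ± 15.9 and 17.6 ± 12.6 CPM in IVM oocytes. GV oocytes held 199.6 and 375 CPM of them on average, or 151 and 320.1 CPM without GV replicate 9.

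The actin list gave 2 higher and 8 lower genes of 58 (13.8%). TMSB4X, thymosin beta 4, which binds actin monomers, was the third gene by reads. It had 23608, 25942 and 35108 CPM in CNP_IVM and 7697, 12902 and 17172 CPM in IVM oocytes (1.08), and the groups did not overlap. The difference was 0.998 without IVM replicate 8 and 1.30 with TMM factors. Quantile normalization gave 0.29, but it sets the top ranks of every library to the same values. CFL1, cofilin, which severs actin filaments, had 49.7, 60.1 and 104 CPM in CNP_IVM and 60.6, 261 and 388 CPM in IVM oocytes (-1.79), with IVM replicates 5 and 7 inside the CNP_IVM range. ARPC1A, of the complex that branches filaments, was apart at 7.004, 15.7 and 24.7 CPM in CNP_IVM and 26.6, 54.4 and 93.4 CPM in IVM oocytes (-1.67). MYO5B, a vesicle motor on actin, was apart too, at 25.5 ± 7.78 CPM in CNP_IVM and 76.3 ± 31.6 CPM in IVM oocytes (-1.54). ACTB, named after its values were seen and uncertain because actin genes are near-identical, averaged 424 ± 84.4 CPM in CNP_IVM and 1199 ± 586 CPM in IVM oocytes (-1.50).

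Histones and splicing factors had shares of higher genes above the background. Of 33 histone genes that passed the filter (56 listed), 6 were 2-fold or more higher (18.2%, against 1.86% of all genes) and 1 lower; many are near-identical copies, histone transcripts largely lack poly(A), and the list's median of 0.53 was -0.064 when the genes below the filter were kept. H2BC18 had 74.7, 126 and 184 CPM in CNP_IVM and 40.2, 43.98 and 58.3 CPM in IVM oocytes (1.45), without overlap. H3-3A encodes the replication-independent variant H3.3, whose messenger RNA is polyadenylated. It had 2207, 2546 and 2904 CPM in CNP_IVM and 792, 1238 and 1713 CPM in IVM oocytes (1.01), also apart, but close enough to 2-fold that leaving out any of CNP_IVM replicates 1, 3 or 5 or IVM replicates 1, 8, 9 or 10 gave 0.93 to 0.997, and quantile scaling 0.88.

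Of 51 core splicing factors, 6 were higher (11.8%) and 8 lower (15.7%). SNRPG, a ring protein of the spliceosome's small ribonucleoproteins, had 821, 1068 and 1468 CPM in CNP_IVM and 238, 415 and 676 CPM in IVM oocytes (1.28). SNRPF, of the same ring, had 1752, 2245 and 3124 CPM in CNP_IVM and 599, 938 and 1352 CPM in IVM oocytes (1.22). Both were apart, and LSM5, a related ring protein, differed by 1.27 with overlap. On the other side, SF3B4 of the U2 particle had 72.7, 100.4 and 138 CPM in CNP_IVM and 166, 449 and 576 CPM in IVM oocytes (-1.93), apart. SNRPC of the U1 particle averaged 105 ± 57.4 CPM in CNP_IVM and 400.0 ± 166 CPM in IVM oocytes (-1.91), overlapping at IVM replicate 3. SF3A2, low in both groups at 2.08 ± 1.04 CPM in CNP_IVM and 12.3 ± 10.4 CPM in IVM oocytes, differed by -2.11.

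Genes of messenger RNA storage, polyadenylation, deadenylation and decay counted 2 higher and 15 lower of 87 (17.2%). The higher ones were PAN3, of the deadenylase that makes the first cuts in long tails, and TENT4B, a non-canonical poly(A) polymerase. PAN3 had 68.96, 80.5 and 135 CPM in CNP_IVM and 32.3, 42.5 and 53.6 CPM in IVM oocytes (1.12), and TENT4B 9.19, 12.04 and 18.8 CPM in CNP_IVM and 3.15, 5.92 and 8.55 CPM in IVM oocytes (1.12); neither overlapped, though both were under 2-fold on medians over oocytes, and TENT4B also with a pseudocount of 5 CPM. TENT5C, another non-canonical polymerase, averaged 5.68 ± 2.57 CPM in CNP_IVM and 35.2 ± 33.98 CPM in IVM oocytes (-2.44). EXOSC4, of the RNA exosome, averaged 4.31 ± 2.34 CPM in CNP_IVM, 20.3 ± 11.9 CPM in IVM and 243 ± 66.9 CPM in GV oocytes, or 267 ± 25.8 CPM without GV replicate 9 (-2.01). ZFP36, which brings AU-rich messengers to decay, averaged 7.13 ± 3.39 CPM in CNP_IVM and 29.2 ± 19.2 CPM in IVM oocytes (-1.89). IVM replicate 7 lay in the CNP_IVM range of all 3.

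Few cytosolic ribosomal proteins were 2-fold apart. Of 82, 3 were higher, 1 was lower (1.22%) and 78 lay under 2-fold, and their median of 0.17 was 0.45 above that of all genes; near-identical pseudogenes make single values uncertain. RPS28 had 72.8, 102 and 185 CPM in CNP_IVM and 36.99, 47.98 and 54.2 CPM in IVM oocytes (1.21), without overlap. Of 69 translation factors and their modifying enzymes, 2 were higher and 13 lower (18.8%). PABPC1, the cytoplasmic poly(A)-binding protein, had 123, 247 and 353 CPM in CNP_IVM and 48.6, 81.1 and 189 CPM in IVM oocytes (1.45), with IVM replicate 5 in the CNP_IVM range. EIF2D, an initiation factor, was apart, at 1.47, 4.05 and 6.63 CPM in CNP_IVM and 8.41, 17.8 and 41.5 CPM in IVM oocytes (-2.12). Of 38 aminoacyl transfer RNA synthetases, 0 were higher and 8 lower (21.1%), with a median of -0.57, or -0.29 relative to all genes. TARS1, for threonine, had 54.5, 88.8 and 101 CPM in CNP_IVM and 146, 205 and 285 CPM in IVM oocytes (-1.19, and under 2-fold with TMM factors), without overlap.

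Of 30 RNA polymerase subunits, 1 was higher and 6 lower (20%), and 2 subunits shared by all the polymerases differed in opposite directions: POLR2H averaged 431 ± 134 CPM in CNP_IVM and 166 ± 74.4 CPM in IVM oocytes (1.37), and POLR2E 15.9 ± 6.82 CPM in CNP_IVM and 50.8 ± 23.9 CPM in IVM oocytes (-1.62). Both overlapped between groups. Of 72 DNA methylation and histone modification enzymes, 0 were higher and 11 lower (15.3%). PRMT6, an arginine methyltransferase of histone H3, averaged 1.19 ± 0.759 CPM in CNP_IVM, 14.7 ± 11.1 CPM in IVM and 77.2 ± 49.1 CPM in GV oocytes, or 59.7 ± 17.6 CPM without GV replicate 9 (-2.85), and HDAC7, a class II deacetylase, 3.29 ± 0.935 CPM in CNP_IVM and 13.9 ± 8.87 CPM in IVM oocytes (-1.80). IVM replicate 7 was the one to overlap in each. Of 70 DNA repair genes, 0 were higher and 12 lower (17.1%). RAD52, of homologous recombination, was apart between the groups, at 18.1, 23.8 and 27.7 CPM in CNP_IVM and 36.997, 60.4 and 98.1 CPM in IVM oocytes (-1.34).

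Glycolysis and citric acid cycle genes were on the lower side. Of 54 genes that serve glycolysis, the citric acid cycle or the pentose phosphate route, 0 were higher and 15 lower (27.8%), and their median was -0.71, or -0.42 relative to all genes. GPI, the second enzyme of glycolysis, had 22.4, 32.02 and 55.1 CPM in CNP_IVM and 45.3, 131 and 180.1 CPM in IVM oocytes (-1.75), with IVM replicates 5 and 6 in the CNP_IVM range. LDHC, the germ cell lactate dehydrogenase, averaged 99.2 ± 56.7 CPM in CNP_IVM and 339 ± 149 CPM in IVM oocytes (-1.76), overlapping at IVM replicates 3 and 8. MTHFD2L, a mitochondrial enzyme of one-carbon metabolism, is given without a fold, because the pseudocount sets its difference. It was at 0 in 6 CNP_IVM oocytes and at 0.0574 CPM in the other, while IVM oocytes had 0, 9.32 and 36.3 CPM as the lowest, median and highest. Of 71 fatty acid, lipid droplet and sterol genes, 0 were higher and 15 lower (21.1%). STAR, which brings cholesterol into mitochondria and is also a granulosa and theca gene, had 78.6, 90.8 and 117 CPM in CNP_IVM, 175, 326 and 452 CPM in IVM and 547, 629 and 844 CPM in GV oocytes, or 547, 616 and 844 CPM without GV replicate 9 (-1.74); the groups did not overlap.

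Of 52 antioxidant and glutathione genes, 1 was higher and 9 lower (17.3%). GLRX, glutaredoxin, was the higher one, at 164, 365 and 455 CPM in CNP_IVM and 69.5, 106 and 308 CPM in IVM oocytes (1.22), with overlap at 3 IVM oocytes. SOD2, the superoxide dismutase of mitochondria, had 14.6, 32.4 and 49.1 CPM in CNP_IVM and 45.6, 95.8 and 135 CPM in IVM oocytes (-1.48), overlapping at IVM replicate 3. SELENOF, a selenoprotein of the endoplasmic reticulum, was apart, at 52.04, 84.9 and 172 CPM in CNP_IVM and 179.6, 265 and 379.9 CPM in IVM oocytes (-1.64). KEAP1, the sensor that restrains NRF2, averaged 7.74 ± 3.73 CPM in CNP_IVM and 24.8 ± 19.8 CPM in IVM oocytes (-1.56). Of 33 genes of branched-chain amino acid and polyamine metabolism, 0 were higher and 3 lower (9.09%).

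Protein quality control lists lay near or below the background of lower genes. Of 54 chaperone genes, 1 was higher and 8 lower (14.8%). HSPA2, a germ cell HSP70, had 8.69, 17.1 and 20.7 CPM in CNP_IVM and 24.03, 52.99 and 159 CPM in IVM oocytes (-1.92), apart, and BAG3, a co-chaperone of HSP70 proteins, averaged 3.32 ± 1.68 CPM in CNP_IVM and 14.9 ± 9.68 CPM in IVM oocytes (-1.88). Of 35 autophagy and lysosome genes, 0 were higher and 5 lower (14.3%), LAMP1 of the lysosomal membrane among them at 5.45 ± 3.68 CPM in CNP_IVM and 22.7 ± 15.99 CPM in IVM oocytes (-1.88). Of 47 proteasome genes, 0 were higher and 5 lower (10.6%), with PSMD3 of the regulatory lid at 11.7 ± 4.47 CPM in CNP_IVM and 44.4 ± 30.4 CPM in IVM oocytes (-1.84). Of 76 ubiquitin conjugating enzymes and proteases, 1 was higher and 7 lower (9.21%). The higher one, UBE2E1, had 17.4, 64.2 and 172 CPM in CNP_IVM and 10.96, 18.3 and 22.7 CPM in IVM oocytes (2.16); 6 CNP_IVM oocytes lay above all IVM oocytes and the lowest among them. USP19, a deubiquitinase of the endoplasmic reticulum, averaged 3.38 ± 1.43 CPM in CNP_IVM and 27.7 ± 31.6 CPM in IVM oocytes (-2.71, and -2.08 without IVM replicate 8).

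Of 48 RAB genes of vesicle transport, 2 were higher and 3 lower (6.25%). RAB7A, of late endosomes, had 14.3, 21.03 and 26.4 CPM in CNP_IVM, 71.05, 104 and 159 CPM in IVM and 150.0, 201 and 319 CPM in GV oocytes, or 150.0, 186 and 222 CPM without GV replicate 9 (-2.37) and did not overlap between the matured groups. Of 42 genes of EGF, TGF-beta and insulin signalling, 0 were higher and 6 lower (14.3%). AKT1, a kinase below insulin and growth factor receptors, had 1.95, 6.76 and 16.8 CPM in CNP_IVM and 5.95, 46.6 and 132 CPM in IVM oocytes (-2.58), overlapping at IVM replicates 5, 6 and 7. SMAD2, which carries activin and GDF9 signals, was apart, at 61.4, 123 and 143 CPM in CNP_IVM and 242, 278 and 340.4 CPM in IVM oocytes (-1.25, under 2-fold with TMM factors). Apoptosis genes counted 0 higher and 6 lower of 26 (23.1%), and 1 of 6 genes of embryonic genome activation was lower.

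Of 18 cumulus and granulosa markers past the filter, 0 were higher and 3 lower (16.7%), STAR and SERPINE2 among them. SERPINE2, a protease inhibitor of cumulus cells, had 4.76, 10.98 and 15.5 CPM in CNP_IVM, 34.4, 53.99 and 81.99 CPM in IVM and 23.1, 58.4 and 185 CPM in GV oocytes, or 23.1, 51.1 and 74.9 CPM without GV replicate 9 (-2.26), without overlap between the matured groups. HAS2, which makes the hyaluronan of the expanding cumulus, went the other way at under 2-fold, with 98.3, 115 and 149.6 CPM in CNP_IVM and 61.1, 76.6 and 94.8 CPM in IVM oocytes (0.61), also without overlap. GV oocytes averaged 16.3 CPM of HAS2, or 14.7 CPM without GV replicate 9, below both matured groups. These transcripts may be the oocyte's or those of adhering cumulus cells, which cannot be told apart here.

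Outside the lists, the genes with the lowest differences were mostly those in which IVM oocytes varied widely. RNF166, a ubiquitin ligase, was the one of them with the clearest separation, at 2.08, 3.25 and 4.96 CPM in CNP_IVM, 12.5, 50.3 and 107 CPM in IVM and 35.5, 56.8 and 183 CPM in GV oocytes, or 35.5, 48.9 and 80.4 CPM without GV replicate 9 (-3.61). ABHD17A, which removes palmitate from proteins, had 3.49, 7.51 and 12.6 CPM in CNP_IVM and 9.13, 76.5 and 166 CPM in IVM oocytes (-3.10), overlapping at IVM replicates 5 and 7. LRP1, an endocytic receptor, had 1.34, 2.69 and 4.45 CPM in CNP_IVM and 0.378, 17.8 and 103 CPM in IVM oocytes (-2.94, and -2.27 without IVM replicate 8), all 7 CNP_IVM oocytes lying inside the IVM range. DUSP5, a phosphatase of ERK, averaged 3.09 ± 3.11 CPM in CNP_IVM and 28.8 ± 15.4 CPM in IVM oocytes (-2.87).

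The 20 highest differences were those of the 13 mitochondrial transcripts and 7 nuclear genes. Among these 7, AUTS2, a neurodevelopmental regulator of transcription, had 19.3, 35.5 and 58.8 CPM in CNP_IVM and 6.79, 8.86 and 14.7 CPM in IVM oocytes (1.74). NUCKS1, a nuclear DNA-binding protein, had 27.3, 50.2 and 69.9 CPM in CNP_IVM and 6.58, 15.7 and 22.5 CPM in IVM oocytes (1.61). CTDSPL, a phosphatase, had 12.1, 28.7 and 43.7 CPM in CNP_IVM and 4.56, 7.61 and 11.9 CPM in IVM oocytes (1.61). These 3 did not overlap. Neither did TIAL1, an RNA-binding protein of stress granules, at 13.6, 22.8 and 24.1 CPM in CNP_IVM and 5.54, 6.21 and 7.76 CPM in IVM oocytes (1.58). DAB2, an endocytic adaptor, averaged 23.4 ± 22.4 CPM in CNP_IVM and 4.60 ± 4.29 CPM in IVM oocytes (2.12) and overlapped at 6 IVM oocytes. SREK1IP1, a splicing regulator named after its values were seen, had 642, 776 and 1033 CPM in CNP_IVM and 145, 261 and 530.2 CPM in IVM oocytes (1.50), apart.

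**Figure D5:**
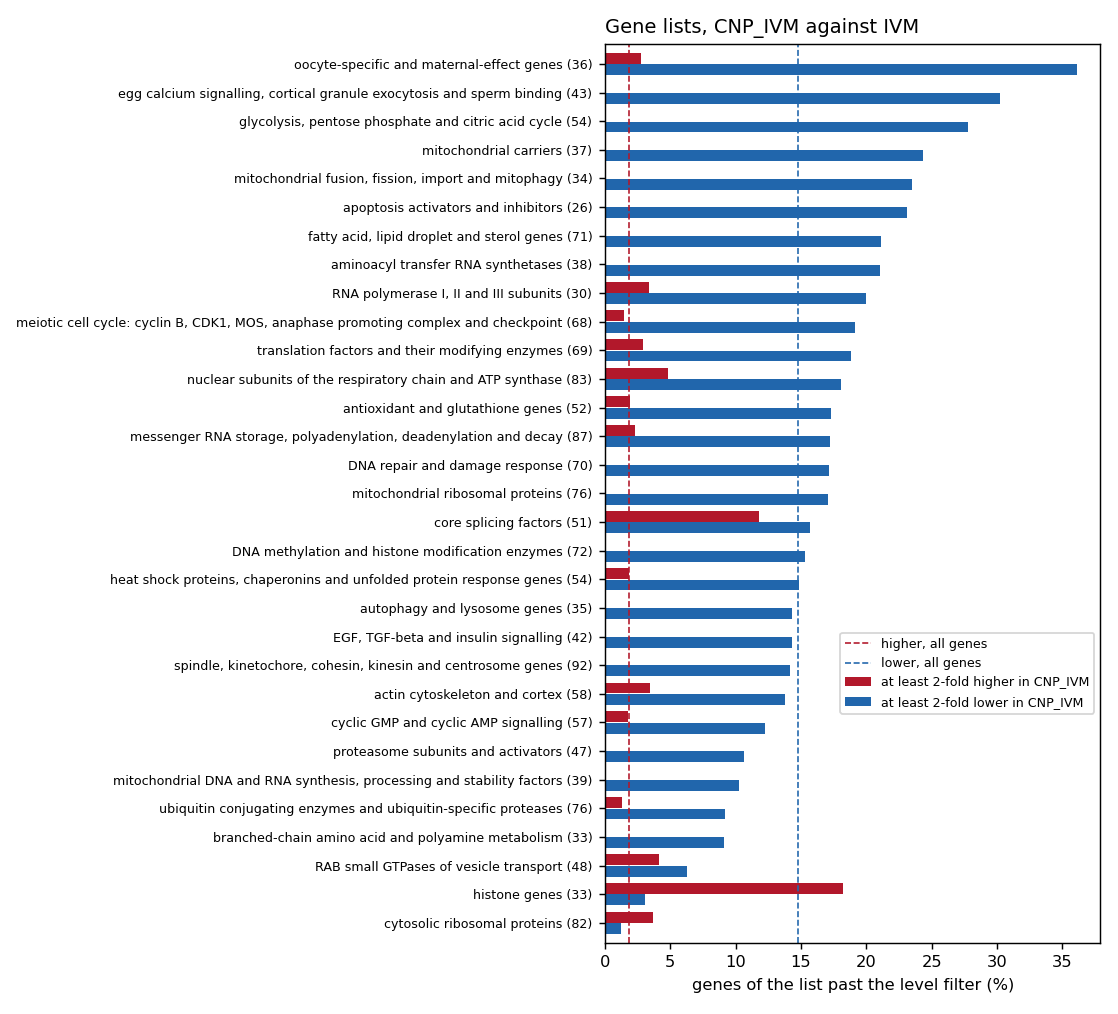
Share of each gene list (horizontal axis, % of its genes past the level filter, whose number stands in brackets) at least 2-fold higher (red) or lower (blue) in CNP_IVM than in IVM oocytes, for lists of 20 or more genes; dashed lines are the shares of all genes, 1.86 and 14.8%. Oocyte-specific genes reach 36.1% lower, and histone genes and splicing factors hold the highest shares of higher genes, 18.2 and 11.8%.

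Over the 37 lists, the sign of 15 medians depended on the scaling, among them those of cyclic nucleotide signalling, nuclear respiratory chain subunits, splicing, spindle, proteasome, translation and messenger RNA control. Of the rest, 19 were below 0 with the deposited values, TMM factors and quantile normalization alike, including the oocyte-specific genes (-0.84, -0.53 and -0.78) and glycolysis with the citric acid cycle (-0.71, -0.47 and -0.30). The 3 above 0 on all scales were the mitochondrial genome, the cytosolic ribosomal proteins and the histones. By starting level, the share of genes at least 2-fold lower was 9.29% for genes under 1 CPM in GV oocytes, 9.77% from 1 to 10, 17.8% from 10 to 100, 17.2% from 100 to 1000 and 18.5% at 1000 CPM or more. Without GV replicate 9 these shares were 9.63, 10.4, 17.9, 16.4 and 18.2%. The shares at least 2-fold higher were 2.56, 1.89, 1.50, 2.52 and 4.35% in the same order, with all GV oocytes. The pseudocount of 1 CPM shrinks differences of genes at low levels, and its part in these shares was not tested.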

How the data were processed

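Single oocytes were frozen and made into poly(A)-primed SMART-Seq libraries, per the labels' protocols. Tools listed without roles in the submitters' processing notes are HISAT2 2.2.1, featureCounts 2.0.1, Trim Galore 0.6.7, edgeR and FastQC, with the mouse build GRCm39; the gene names are cattle symbols, so no coordinates are given. The authors deposited 1 table named for TPM that holds CPM: all of its values gave whole reads (100% within 0.01 read), and 97.1 to 97.6% of reads lay in listed genes. RefSeq's gene table of ARS-UCD2.0 holds 13356 of the 13502 names as symbols and 41 as synonyms. Of 29 labelled samples, 22 had a column and 7 were not analysed here. GV replicate 9 was grouped by its title, against a treatment label of in vitro maturation. No pair of libraries of 1 group agreed within counting noise (smallest chi-square per degree of freedom 38.0).

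Differences are log2 ratios of group means plus 1 CPM, computed with pandas 2.3.3 and numpy 2.4.6 on Python 3.11.15; TMM factors came from edgeR 4.0.16 on R 4.3.3. No test was made, although the table gives whole reads, because no label ties an oocyte to an animal or culture. The calculation was tested on simulated data. The comparison, its 37 lists and the naming rule were chosen with earlier results of these data known. The rule took the 20 highest and 20 lowest differences among genes with a mean of 10 CPM or more and a symbol, up to 3 genes per list and direction, and a fixed set; it gave 159 genes, of which those printed are a part, and 3 genes with values (AURKA, ACTB and SREK1IP1) are outside it. Alternatives were other pseudocounts, filters and scalings, medians, means of log2 values and leaving out each oocyte. Counting intervals are not printed, since they would cover counting error only.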

Additional observations from a re-analysis of the deposited data

Results flagged for a closer look

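Of 242 groups of 7 or 8 oocytes examined, 26 had 1 oocyte far from its nearest neighbour for the range of the group. The measure was Dixon's criterion at 95% on CPM values without logs. Chance flags about 1 in 20 groups of normally distributed values, and CPM values need not be normal. In all 26 the flagged oocyte was the highest of its group, and transcripts of 1 oocyte are not independent of each other. The criterion picks single oocytes and says nothing of their cause, which was not tested.

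Of the 26, 9 were IVM replicate 3 for transcripts of the mitochondrial genome. Its sum over the 13 genes was 9414 CPM, against 2205 to 4456 CPM in the other 7 IVM oocytes. It stood alone with 562 CPM of ND4, 37.2 CPM of ND4L, 2085 CPM of CYTB, 2009.6 CPM of COX1, 371 CPM of COX2, 2266 CPM of COX3, 830.3 CPM of ATP6 and 26.3 CPM of ATP8. Among CNP_IVM oocytes, replicate 2 stood alone with 647 CPM of ND3, against 89.3 to 310.4 CPM in the other 6, and with 449 CPM of ND6.

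IVM replicate 8 stood above the other IVM oocytes for 6 genes lower in CNP_IVM oocytes, with 30.8 CPM of GNAI2, 443 CPM of PLK3, 529 CPM of SKP2, 68.7 CPM of KEAP1, 105 CPM of PSMD3 and 99.1 CPM of USP19. The next IVM oocyte had 14.3, 227, 329, 33.7, 56.5 and 36.0 CPM of these genes.

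The other oocytes were spread over both groups. CNP_IVM replicate 1 had 1627 CPM of MOS, replicate 5 had 172 CPM of SELENOF, 3.67 CPM of GUCY1A1 and 0.0574 CPM of MTHFD2L, and replicate 6 had 16.8 CPM of AKT1. IVM replicate 9 had 20.3 CPM of GJA1 and 2.58 CPM of GUCY1A1, replicate 5 had 189 CPM of PABPC1, and replicate 10 had 24.9 CPM over the theca and stroma markers.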

How the results depend on the processing

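No result changed direction among the counts or the genes called 2-fold apart, and of 102 named genes past 2-fold, 97 to 102 remained so under each alternative. Against 220 higher and 1754 lower genes, the counts were 395 and 2793 with a pseudocount of 0.1 CPM, 113 and 743 with 5 CPM, 457 and 992 with TMM factors, and 513 and 762 with quantile normalization; leaving out 1 oocyte at a time gave 170 to 260 and 1389 to 2060. List medians that moved beyond the spread between oocytes were as follows. Histones had 0.99 and 0.19 with pseudocounts of 0.1 and 5 CPM, -0.064 without a filter, 0.27 with a filter of 10 CPM and 0.81 with quantile normalization. Glycolysis and the citric acid cycle had -0.34 with 5 CPM and -0.30 with quantile normalization, and cumulus and granulosa markers -0.54 with the 10 CPM filter and 0.16 with quantile normalization. With TMM factors and then quantile normalization, fusion and import genes had -0.22 and -0.24, translation factors 0.029 and 0.014, proteasome 0.025 and 0.021, DNA repair -0.033 and -0.023, actin -0.031 and -0.044, antioxidant genes -0.14 and -0.15, and splicing 0.0052 and -0.0098. With TMM factors alone, cytosolic ribosomal proteins had 0.45, messenger RNA control 0.074, oocyte-specific genes -0.53, spindle 0.083 and oocyte markers -0.46. With quantile normalization alone, mitochondrial ribosomal proteins had -0.037, meiotic cell cycle -0.039, cyclic nucleotide signalling 0.14, branched-chain amino acid and polyamine genes -0.20, EGF, TGF-beta and insulin signalling 0.0603, RAB genes 0.17 and theca and stroma markers 0.104. The cause of these shifts was not tested. No paired analysis was possible because replicate numbers in the titles tie no oocyte to an animal or culture and no test was made. Chosen after seeing the data, a level filter counted without GV replicate 9 gave 220 higher and 1753 lower of 11783 genes. Libraries held at least 20159662 reads, and the number of animals is not known.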

Other observations

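Several of the 20 genes with the highest mean share of reads over both groups are not described above, and they differed by less than 2-fold. ACCSL, an oocyte transcript, had 4098, 6120.0 and 7466 CPM as the lowest, median and highest CNP_IVM oocyte and 5206, 11966 and 15178 CPM in IVM oocytes (log2 difference -0.85). KPNA7, the importin alpha of oocytes and early embryos, had 2177, 2661 and 3342 CPM in CNP_IVM and 2931, 4605 and 7046 CPM in IVM oocytes (-0.85). In both genes the CNP_IVM oocytes lay at the low end of the IVM range or below it. DPPA3, a maternal factor that protects DNA methylation in the zygote, had 3531, 4200.2 and 6045 CPM in CNP_IVM and 1757, 3117 and 4894 CPM in IVM oocytes (0.54). UBB, which encodes ubiquitin, averaged 6466 CPM in CNP_IVM and 8216 CPM in IVM oocytes (-0.35). PAIP1, a partner of poly(A)-binding protein, and CENPV, a centromere protein, differed by 0.029 and 0.029.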
